A study of Mus musculus with 188 samples.

Results

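Neuropeptide genes encode small secreted signals that neurons store in dense-core granules and release beside their fast transmitters. The 10 described here were chosen by gene symbol: Oxt, Avp, Trh, Cartpt, Vgf, Npy, Sst, Vip, Penk and Crh, which are 10 of the 25711 genes listed in the count tables of mouse brain slice cultures. The list was drawn up with earlier results of these libraries known, so the levels and changes given here describe the genes and are no independent evidence about them.

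Coronal brain slices of C57BL/6J mice, young adults of both sexes by the study's methods, were kept in organotypic culture and then exposed to the red blood cell toxins hemoglobin (Hb) or heme, free of or bound to the plasma proteins that capture them, haptoglobin (Hp) for Hb and hemopexin (Hpx) for heme. All proteins were of human origin by those methods, and messenger RNA of whole cultures was sequenced, so a lower level of a gene may mean fewer cells of a type or less RNA per cell, which cannot be told apart. In batch 1, 60 libraries held 10 each of untreated control, heme-albumin at 12.5, 50, 200 and 400 µM and hemeHpx at 200 µM, all taken at 24 h. In batches 2 and 3 the assigned libraries were control (10 at 24 h, 9 at 48 h), Hb at 200 µM (10 and 10) and 400 µM (10 and 10), HbHp at 200 µM (8 and 8) and 400 µM (4 and 5) and Hp alone at 400 µM (12 and 11). The sample titles call the hemeHpx group a haptoglobin complex while the treatment tag and the library name say Hpx, and the tag was followed. A further 21 libraries carry labels that leave their treatment or time open and entered no comparison. The labels do not say which libraries came from separate animals or cultures, so each p-value measures the spread between libraries, part of which may be technical.

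The first part of the library name splits batches 2 and 3 into E1 and E2, which the labels do not explain, and HbHp libraries occur only in E2 and batch 3. Hp alone occurs only in batch 3, while 8 of the 10 controls at 24 h and 7 of the 9 at 48 h are of batch 2. Levels of HbHp and Hp groups set beside control levels are therefore largely from different batches. In batch 1 the last digit of the library name follows the treatment order in most libraries, though not in all, so the name number and the treatment largely coincide there. The total count of a library had a median of 22054776 in batch 1 (lowest 11038484, highest 44199060) and of 32626873 in batches 2 and 3 (lowest 15587938, highest 54174784). The median of each group for all 10 general neuron markers was at least 1 CPM (the count of a gene relative to the scaled total of its library) in every group, and their summed level ran from 476 to 1600 CPM. The summed level of 8 pituitary markers did not exceed 10.1 CPM in any library and its median was below 1 CPM in all but 2 groups.

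By background knowledge, each gene makes a precursor protein that is cut by prohormone convertases inside the granule into the active peptide. Oxytocin and vasopressin are made by large neurons of the hypothalamus and released into blood, whereas TRH and CRH are hypothalamic releasing hormones that drive the pituitary. NPY, somatostatin and VIP mark classes of inhibitory interneurons in the cortex, enkephalin from Penk is abundant in the striatum, and CART and the granin-like VGF are regulated by neuronal activity and growth factors.

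Oxt and Avp are neighbours on chromosome 2 that face each other tail to tail on opposite strands, with 3565 bases between them (GRCm38, GENCODE M21). Oxt (ENSMUSG00000027301) covers chr2:130576173-130577054 on the plus strand and Avp (ENSMUSG00000037727) chr2:130580620-130582554 on the minus strand. The other genes lie at chr6:92242061-92244650 (Trh), chr13:99898489-99901091 (Cartpt), chr5:137026392-137033351 (Vgf), chr6:49822710-49829507 (Npy), chr16:23889573-23890958 (Sst), chr10:5639218-5647617 (Vip), chr4:4133531-4138819 (Penk) and chr3:19693401-19695396 (Crh). Penk overlaps the antisense gene A830012C17Rik in this annotation, and the sources used here do not say whether the counting used the strand. These positions are of a build older than the GRCm39 of the submitters' processing notes.

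RefSeq promoters of GRCm38.p6 were found for 7 of the 10 genes. Those of Oxt and Avp are shown because these genes neighbour each other and varied together, and those of Cartpt and Sst because they hold the full cyclic AMP response element, the palindrome bound by CREB. Each is the 200 bases before the start annotated by RefSeq, 5′ to 3′ on the gene's strand. That start differs from the GENCODE one: the Cartpt window lies within the gene span given above, and the Sst window partly so. The marked site of each of these genes is inside its span. Capitals mark TGACCT or its complement AGGTCA, a site that nuclear receptors can bind, in Oxt (chr2:130575969-130576168, plus strand), the E box CACGTG in Avp (chr2:130582589-130582788, minus strand) and TGACGTCA in Cartpt (chr13:99900684-99900883, minus strand) and Sst (chr16:23890845-23891044, minus strand).
Oxt: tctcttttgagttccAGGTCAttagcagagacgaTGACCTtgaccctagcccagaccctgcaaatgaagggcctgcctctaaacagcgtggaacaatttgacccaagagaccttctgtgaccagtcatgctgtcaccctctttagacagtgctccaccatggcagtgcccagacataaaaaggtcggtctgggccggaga
Avp: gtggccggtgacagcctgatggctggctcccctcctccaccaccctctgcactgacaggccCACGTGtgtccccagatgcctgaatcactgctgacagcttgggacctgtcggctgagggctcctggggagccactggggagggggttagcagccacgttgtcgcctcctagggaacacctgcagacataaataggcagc
Cartpt: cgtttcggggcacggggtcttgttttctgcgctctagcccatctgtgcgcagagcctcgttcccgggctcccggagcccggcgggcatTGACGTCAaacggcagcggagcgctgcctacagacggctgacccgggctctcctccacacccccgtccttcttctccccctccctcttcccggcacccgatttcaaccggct
Sst: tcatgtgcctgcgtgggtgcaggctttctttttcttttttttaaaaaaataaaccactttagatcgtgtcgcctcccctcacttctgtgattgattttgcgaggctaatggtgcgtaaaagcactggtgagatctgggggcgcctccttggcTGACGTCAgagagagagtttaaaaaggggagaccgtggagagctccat

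In windows from 250 bases before to 50 bases after the start, searched on both strands, TGACGTCA was found in 588 of 32851 promoters (1.79%), among them Cartpt, 112 bases before its start, and Sst, 48 bases before. The shorter TGACG, which each full element contains, was in 20.8% of the promoters, among them Trh, Cartpt, Sst and Vip. TGACCT was in 16.3%, among them Oxt, with matches 185 and 166 bases before its start, and Trh. CACGTG was in 7.15%, among them Avp, 139 bases before its start. A match is a description of the letters in these windows and no evidence of binding.

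Per kilobase of exon, Npy and Vgf stood highest, and Avp and Vip lowest in batch 1 and Vip in batches 2 and 3. In the controls of batch 1 the median level was 24.6 CPM per kilobase for Npy, 12.5 for Vgf, 7.93 for Sst, 1.95 for Penk, 0.348 for Cartpt, 0.302 for Trh, 0.165 for Oxt and 0.137 for Crh, and 0 for Avp and Vip. In the controls of batches 2 and 3 the first 4 genes kept that order, with 29.6 for Npy, 12.4 for Vgf, 5.72 for Sst and 1.71 for Penk. Below them came Cartpt at 0.854, Trh at 0.795, Avp at 0.496, Crh at 0.495, Oxt at 0.277 and Vip at 0.0194. The ranges of neighbours in this order overlapped over the single controls: Npy spanned 13.2 to 67.6 and Vgf 8.68 to 17.2 in batch 1. Many values of the low genes are single reads, since Avp was at 0 counts in 28 of 60 libraries of batch 1 and in 26 of the assigned libraries of batches 2 and 3. Oxt was at 0 in 8 and 17 of them, and Vip in 32 and 36.

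Vgf, whose product is a granin-like precursor cut into several peptides, had a higher median in each heme-treated group of batch 1 than in control. Its level in the 10 controls of batch 1 ran from 25.8 CPM (lowest) through 37.2 (median) to 51.2 (highest). With heme-albumin it was 40.9, 49.7 and 68.7 CPM at 12.5 µM, 32.8, 51.9 and 92.0 at 50 µM, 23.4, 67.4 and 87.6 at 200 µM and 52.4, 101 and 172 at 400 µM, in the same order. With hemeHpx at 200 µM it was 40.5, 67.4 and 102 CPM. Of the 10 libraries of each group, 4, 5, 9 and 10 lay above the highest control at the rising doses of heme-albumin, and 8 with hemeHpx. At 400 µM the group therefore did not overlap the control group, while the other groups did.

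In edgeR's quasi-likelihood fit of all 15554 genes tested in batch 1, Vgf rose with heme-albumin at 400 µM by a log2 fold change of 1.48 (SE 0.17, adjusted p = 1.28e-09; mean 104 ± 35 against 36.9 ± 7.02 CPM, SD, n = 10 each). It rose by 0.84 (SE 0.17, adjusted p = 0.000493) at 200 µM and by 0.86 (SE 0.17, adjusted p = 0.00673) with hemeHpx at the same dose. The fitted values were 0.46 (unadjusted p = 0.0102, adjusted p = 0.614) at 12.5 µM and 0.52 (unadjusted p = 0.00373, adjusted p = 0.206) at 50 µM, which did not pass. Between hemeHpx and heme-albumin, both at 200 µM, Vgf differed by 0.02 (SE 0.17, adjusted p = 0.929). These comparisons share their control libraries, and the doses of heme-albumin were not tested against each other. The library of heme-albumin 200 µM with 23.4 CPM is replicate 8, and the next lowest of that group is at 58.2 CPM. Over the 20 fits that left out one library of the compared groups, the log2 fold change of Vgf ran from 1.36 to 1.55 at 400 µM, from 0.79 to 0.94 at 200 µM and from 0.75 to 0.92 with hemeHpx, and it passed in each.

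**Figure D1:**
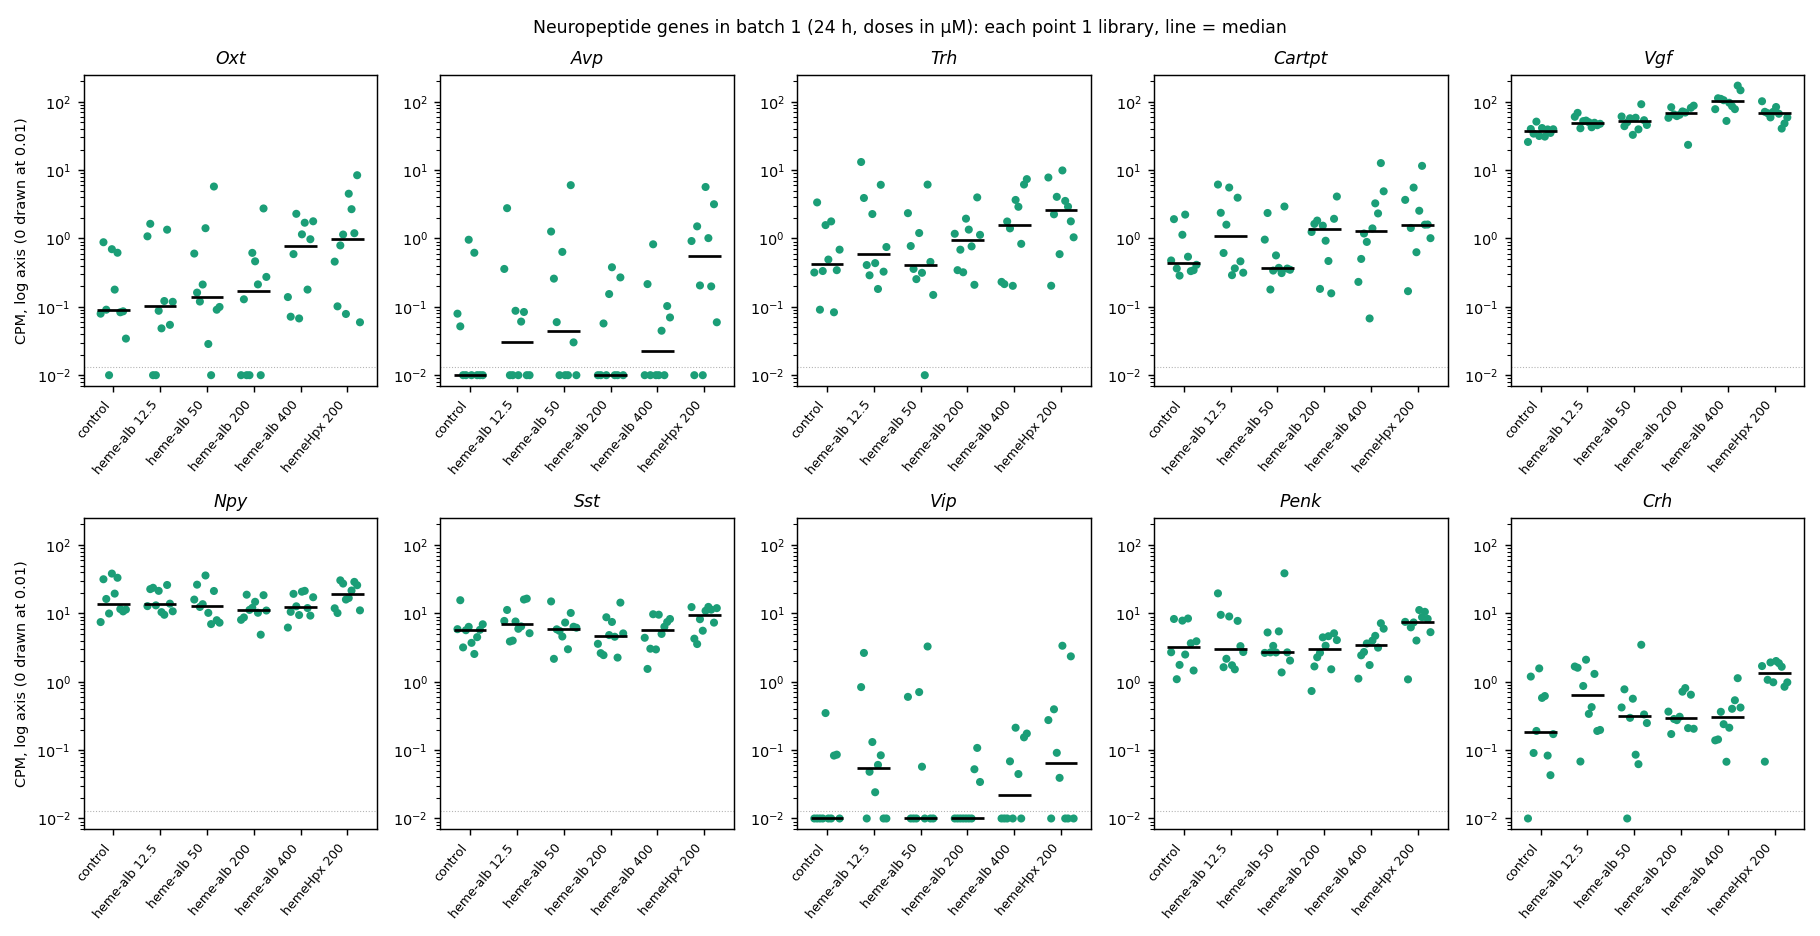
Levels of the 10 neuropeptide genes in the 60 libraries of batch 1, in CPM on a log axis, one point per library by treatment with the group median as a bar and 0 drawn at 0.01. Vgf is above the highest control (51.2 CPM) in all 10 libraries of heme-albumin 400 µM and the low genes spread widely within single groups.

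Of all genes tested, the share called at an adjusted p under 0.05 was 0.045% for heme-albumin at 12.5 µM, 0.463% at 50 µM, 13.6% at 200 µM and 29% at 400 µM, each against control, and 8.2% for hemeHpx against control. Of the 9 neuropeptide genes tested (Vip did not pass the filter on low counts), 0, 0, 1, 1 and 2 were called in these comparisons, and 3, 2, 2, 2 and 6 had an unadjusted p under 0.05. DESeq2 also called 0 at the lower 2 doses. Because the genes were chosen with results known, nothing about the group is read from these counts. With hemeHpx the median log2 fold change of the 9 genes was 1.55, beside 0.005 over all genes tested, and with heme-albumin at 400 µM it was 0.12, beside -0.013.

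Oxt, the oxytocin precursor, was highest with hemeHpx. Its level was 0.0594, 0.966 and 8.41 CPM (lowest, median, highest of 10) with hemeHpx, against 0, 0.0884 and 0.881 CPM in control. In the heme-albumin groups the median was 0.103 CPM at 12.5 µM, 0.14 at 50 µM, 0.171 at 200 µM and 0.782 at 400 µM. The groups overlapped, and the 2 highest libraries with hemeHpx were replicate 9 (8.41 CPM) and replicate 6 (4.51 CPM). Oxt rose with hemeHpx by a log2 fold change of 2.89 (SE 0.93, adjusted p = 0.0459). This call rested on single libraries: it was lost in 13 of the 20 fits that left out one library, with the fold change between 2.19 and 3.42 and the adjusted p at its highest, 0.128, without replicate 9 of hemeHpx. It was also lost without the filter on low counts (adjusted p = 0.0634). Against heme-albumin at 200 µM the difference was 2.16 (adjusted p = 0.0502), which did not pass.

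Avp, the vasopressin precursor, was high in the same 2 libraries. Its level was 0, 0.561 and 5.66 CPM with hemeHpx, 0, 0 and 0.958 in control and 0, 0 and 0.379 with heme-albumin at 200 µM. Replicate 6 was the highest with hemeHpx and replicate 9 stood at 3.17 CPM. Against heme-albumin at 200 µM it was higher by a log2 fold change of 3.83 (SE 1.1, adjusted p = 0.0112), with values between 3.14 and 4.55 and a highest adjusted p of 0.0411 when single libraries were left out. Against control it was 3.23 (SE 1.1, adjusted p = 0.0543). Avp passed the filter on low counts with 12 of 60 libraries at or over 0.453 CPM, 5 of them hemeHpx, 3 heme-albumin 50 µM, 2 control and 0 heme-albumin 200 µM. The filter needs 10. Without those of hemeHpx, the group where it is high, too few were left, and the same held without those of heme-albumin 50 µM. Whether Avp was tested thus depended in part on the levels compared, so its adjusted p is given as a description. It was not tested when only the libraries of hemeHpx and heme-albumin 200 µM were fitted. A library of heme-albumin 50 µM, replicate 8, held the highest Avp of batch 1 (6.02 CPM) and also 5.75 CPM of Oxt.

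Trh and Crh, the precursors of thyrotropin- and corticotropin-releasing hormone, had higher medians with hemeHpx than in control, and Crh was higher than with heme-albumin at 200 µM. Crh was at 0.0678, 1.36 and 2.01 CPM with hemeHpx, 0, 0.181 and 1.57 in control and 0.172, 0.297 and 0.809 with heme-albumin at 200 µM. Of the hemeHpx libraries 9 of 10 were at or over 0.453 CPM, and the exception was replicate 2. Crh was higher than with heme-albumin at 200 µM by 1.71 on the log2 scale (SE 0.57, adjusted p = 0.0229; 1.6 to 1.89 when single libraries were left out). Against control it was 1.55 (SE 0.58, adjusted p = 0.071). Trh was at 0.203, 2.59 and 9.89 CPM with hemeHpx and at 0.0832, 0.417 and 3.37 in control, a difference of 1.89 (SE 0.75, adjusted p = 0.0827). Its highest level in batch 1, 13.1 CPM, was in replicate 1 of heme-albumin 12.5 µM.

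Cartpt, the precursor of the CART peptides, was at 0.169, 1.59 and 11.5 CPM with hemeHpx, 0.0676, 1.29 and 12.7 with heme-albumin at 400 µM and 0.286, 0.444 and 2.23 in control. The log2 fold changes were 1.84 (adjusted p = 0.068) and 1.71 (adjusted p = 0.0514), neither of which passed in edgeR. DESeq2 called Cartpt in both comparisons.

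Penk and Sst had no call against control in batch 1, and Vip was not tested there. Penk, the enkephalin precursor, was at 1.08, 7.45 and 11.2 CPM with hemeHpx and at 1.09, 3.18 and 8.42 in control (log2 fold change 0.76, adjusted p = 0.276). Against heme-albumin at 200 µM, where it was at 0.732, 3.01 and 5.12, it differed by 1.21 (adjusted p = 0.0587). The highest value of batch 1, 38.6 CPM, was again in replicate 8 of heme-albumin 50 µM. Sst, the somatostatin precursor, was at 3.56, 9.57 and 12.4 CPM with hemeHpx and at 2.55, 5.72 and 15.6 in control (0.53, adjusted p = 0.267). Vip, the precursor of vasoactive intestinal peptide, was at 0 counts in 32 of the 60 libraries and reached 3.36 CPM with hemeHpx.

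Npy, the most abundant of these transcripts per kilobase in the controls, differed between hemeHpx and heme-albumin at the same dose. It was at 10.1, 19.2 and 30.5 CPM with hemeHpx, 4.88, 11.1 and 18.8 with heme-albumin at 200 µM and 7.47, 13.9 and 38.2 in control. Npy was higher with hemeHpx than with heme-albumin at 200 µM by 0.78 on the log2 scale (SE 0.29, adjusted p = 0.0442), and this call was lost in 12 of the 20 fits that left out one library (0.68 to 0.86, highest adjusted p 0.0955 without replicate 8 of heme-albumin 200 µM) and without the filter on low counts (adjusted p = 0.0609). Against control it was 0.07 (adjusted p = 0.89) with hemeHpx and -0.70 (SE 0.30, adjusted p = 0.105) with heme-albumin at 200 µM.

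Microglia markers moved with Npy in this comparison. Their summed level was 606, 1080 and 1550 CPM (lowest, median, highest) with hemeHpx, 343, 629 and 883 with heme-albumin at 200 µM and 455, 870 and 1910 in control, and none of the 8 was at 0 throughout. All 8 markers were higher with hemeHpx than with heme-albumin at 200 µM (median log2 fold change 0.87) and 7 were called, among them Cx3cr1 (1.23, adjusted p = 0.0067), the fractalkine receptor. All 8 were lower with heme-albumin at 200 µM than in control (median -0.82), 6 of them called, and 0 of 8 were called for hemeHpx against control. The part of the microglia markers in the difference in Npy was not tested.

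For hemeHpx against heme-albumin at 200 µM, 25.9% of all genes tested were called, beside 3 of the 9 neuropeptide genes (Avp, Npy and Crh). Of these, Avp would not have passed the filter without the hemeHpx libraries. Of the 9 genes, 6 had an unadjusted p under 0.05 and the median log2 fold change was 1.21, beside 0.013 over all genes. Leaving out single libraries moved the count from 3 to 7, with 5 without replicate 2 of hemeHpx and 7 without replicate 9 of heme-albumin 200 µM. Against control it moved from 1 to 6, with 6 without replicate 2 of the control, 4 without replicate 2 of hemeHpx and 1, Vgf, in 13 of the 20 fits. General neuron markers had a median log2 fold change of 0.54 for hemeHpx against control, with 9 of 10 higher, 6 at an unadjusted p under 0.05 and 1 called (Uchl1, 0.41, adjusted p = 0.0333). Of 20 hypothalamus markers 8 were tested and 0 called, with 1 at an unadjusted p under 0.05, and 7 of the 8 were higher (median 0.40). Against heme-albumin at 200 µM 4 of 8 astrocyte and 3 of 8 oligodendrocyte markers were called higher. The part of these markers in the higher hormone genes was not tested.

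**Figure D2:**
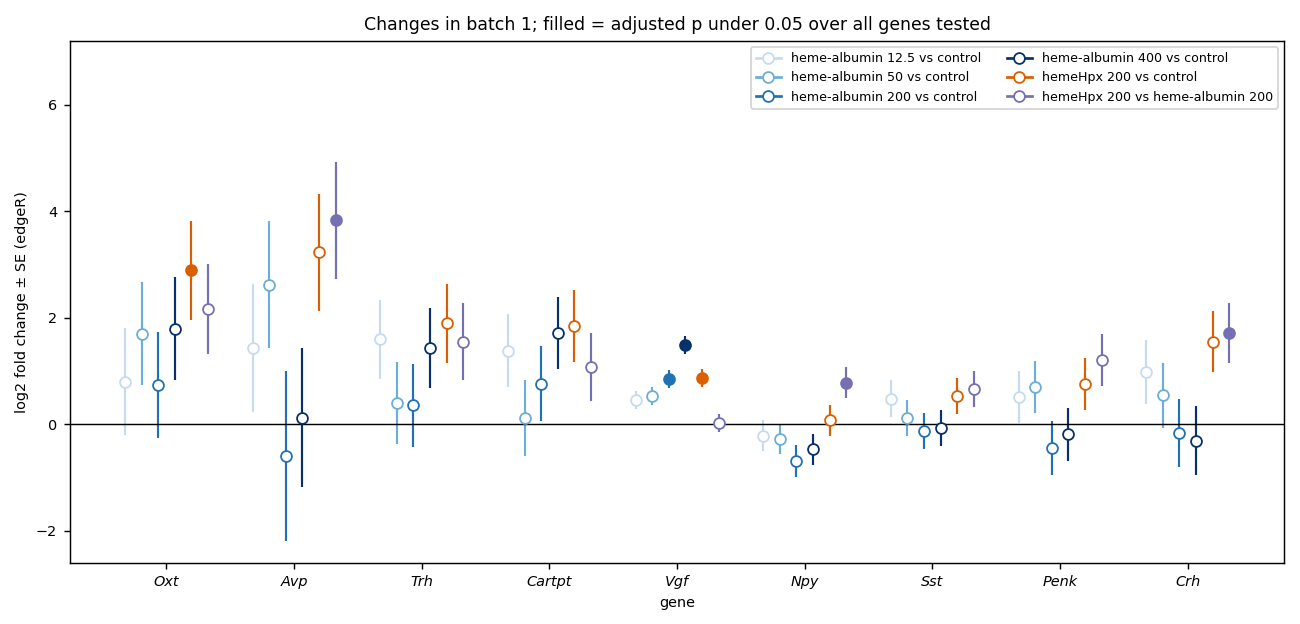
Log2 fold changes of the neuropeptide genes tested in batch 1, with standard errors as bars, for each heme treatment against control and for hemeHpx against heme-albumin at 200 µM. Filled points passed an adjusted p of 0.05: Vgf at 200 and 400 µM and with hemeHpx, Oxt with hemeHpx, and Avp, Npy and Crh in the last comparison.

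In batches 2 and 3 none of the 10 genes was called in any of the 12 treatment comparisons by edgeR, nor by DESeq2. The share of all 16473 genes tested that was called against the control of the same time was, at 24 h, 0.0971% for Hb 200 µM, 0.522% for Hb 400 µM, 1.93% for HbHp 200 µM, 5.15% for HbHp 400 µM and 0.704% for Hp 400 µM. At 48 h it was 0.31%, 0.601%, 11.9%, 11.9% and 10.8% in the same order. For HbHp against Hb at 200 µM it was 0.607% at 24 h and 4.98% at 48 h. An unadjusted p under 0.05 was reached by Avp with Hb 200 µM at 24 h, by Vip with Hb 400 µM at 24 h and with HbHp 400 µM at both times, and by Npy with Hp 400 µM at 48 h, and by no gene in the other comparisons.

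Vgf spread widely in these groups and overlapped the controls in each. At 24 h it was at 20.1, 34.1 and 53.3 CPM (lowest, median, highest) in control, 20, 49.1 and 116 with Hb 400 µM, 18.6, 36.8 and 78.1 with HbHp 200 µM and 17.5, 30.9 and 56.6 with Hp. With Hb 200 µM its median was 40.8 CPM and its lowest value 23. The 4 libraries of HbHp 400 µM were at 41.3, 65.7, 61.5 and 28.7 CPM. The fitted log2 fold change was 0.51 (SE 0.27, adjusted p = 0.758) with Hb 400 µM and 0.69 (SE 0.39, adjusted p = 0.341) with HbHp 400 µM at 24 h. At 48 h the median was 40.3 CPM in control and between 30.3 (HbHp 200 µM) and 45.1 CPM (Hb 200 µM) in the treated groups. One control at 48 h, replicate 7, was at 103 CPM of Vgf and also held the highest Penk (32.9 CPM) and Crh (3.88 CPM) of batches 2 and 3.

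Npy had its highest group medians with HbHp 400 µM at both times and with Hp 400 µM at 48 h, and the ranges overlapped those of the controls. It was at 5.34, 16.1 and 31 CPM in control at 24 h and at 5.67, 16.7 and 47.6 at 48 h. With Hp 400 µM it was at 13.6, 36.4 and 50.5 CPM at 48 h and with HbHp 200 µM at 23.8, 30.1 and 36.5. The 5 libraries of HbHp 400 µM at 48 h were at 24.4, 21.5, 59.5, 50.1 and 39.8 CPM and the 4 at 24 h at 39.6, 36.3, 36.7 and 17.3. Fitted with terms for batch and E1 or E2, the difference from control with Hp 400 µM at 48 h was 0.75 on the log2 scale (adjusted p = 0.122). The HbHp libraries are all of E2, where Npy is higher, and in the same fit their difference from control was 0.15 (SE 0.36, adjusted p = 0.84) with HbHp 200 µM at 48 h, 0.53 (adjusted p = 0.433) with 400 µM at 48 h and 0.60 (adjusted p = 0.471) with 400 µM at 24 h. The microglia marker sum with Hp 400 µM at 48 h was 674, 2570 and 3760 CPM, against 533, 1480 and 3720 in the 48 h control. In the fit with terms for batch and E1 or E2, however, 0 of the 8 markers were called there and 0 had an unadjusted p under 0.05 (edgeR; median log2 fold change 0.07), and with HbHp at 48 h the median was -0.39 at 200 µM and -0.35 at 400 µM.

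The low genes gave wide intervals here. Vip was fitted at -4.79 (SE 2, adjusted p = 0.175) with HbHp 400 µM at 24 h and at -4.75 (SE 2, adjusted p = 0.115) at 48 h, on libraries with 0 to 0.118 and 0 to 0.0751 CPM, levels of a few reads at most. The median of Avp at 24 h was 0.661 CPM in control, 0.0767 with Hb 200 µM, 0.0238 with Hb 400 µM and 0.0336 with Hp, and the ranges overlapped (0 to 4.73 CPM in control). The fitted difference for Hb 200 µM was -2.16 (SE 1, adjusted p = 1). Oxt had a median of 0.655 CPM in that control and 0.0707 with Hp at 24 h, a fitted difference of -1.83 (SE 0.93, adjusted p = 0.42).

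**Figure D3:**
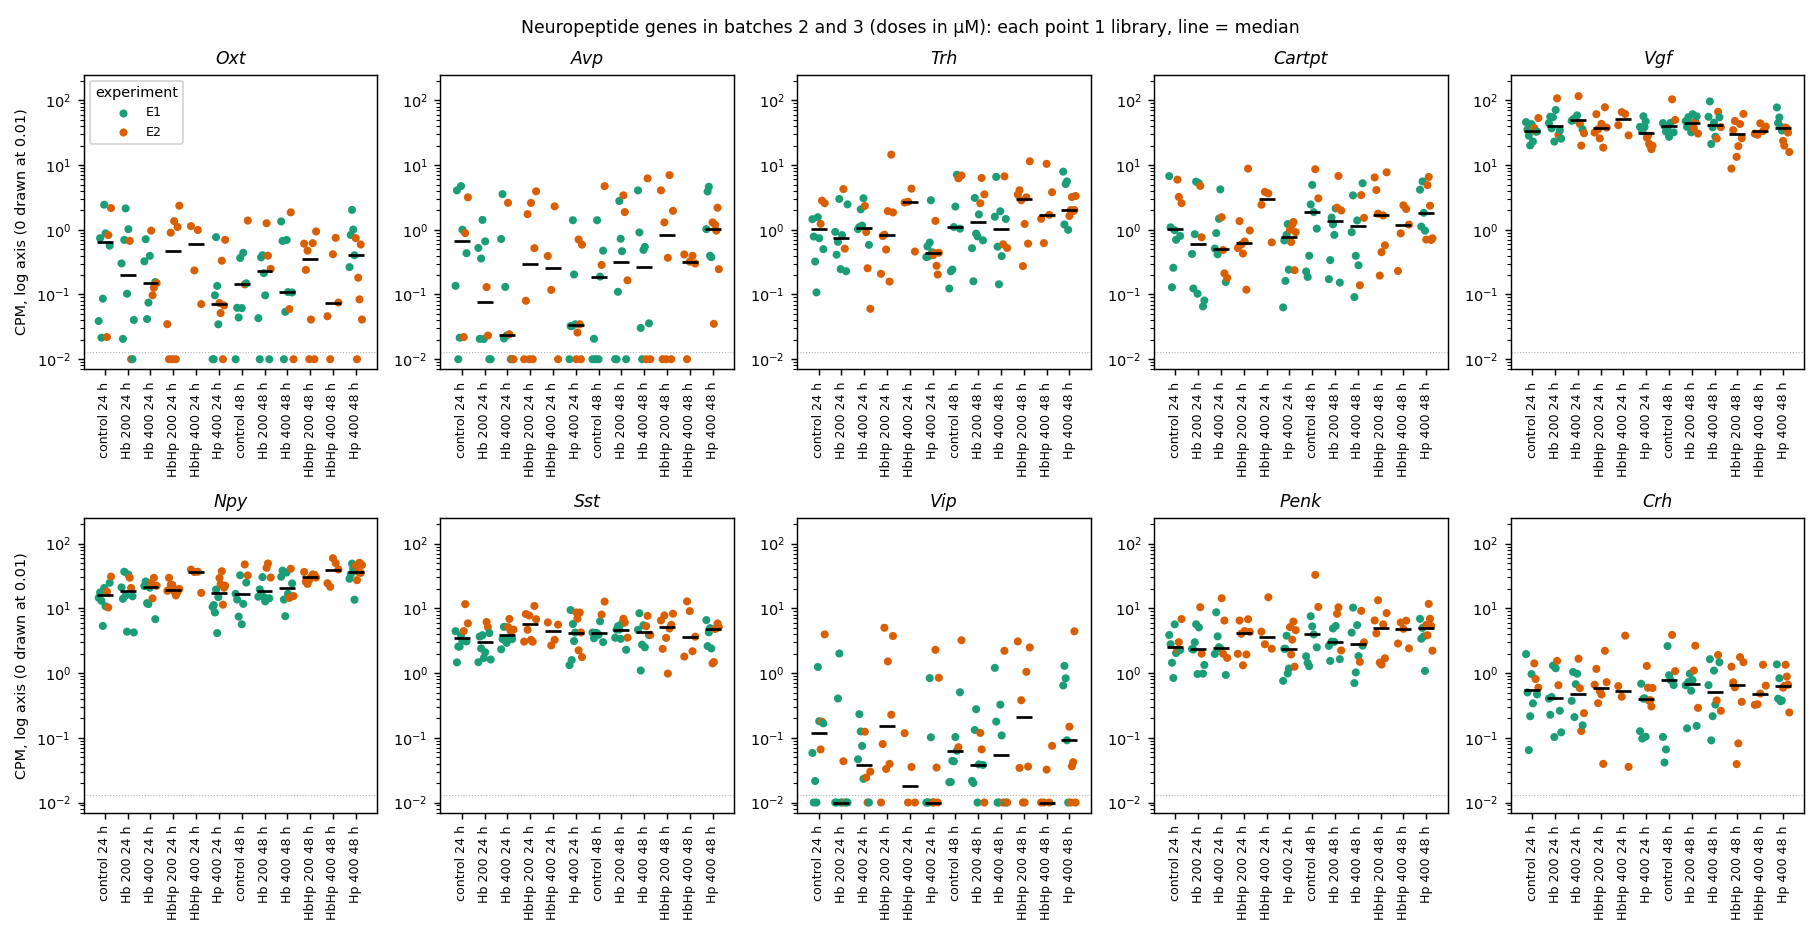
Levels of the 10 neuropeptide genes in the assigned libraries of batches 2 and 3, in CPM on a log axis, one point per library by treatment and time, coloured by E1 or E2, with the group median as a bar and 0 drawn at 0.01. Every treated group overlaps its control for Vgf, whose highest value is 116 CPM with Hb 400 µM at 24 h.

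Control slices taken at 48 h against 24 h had 0 of the 10 genes called, with 1 at an unadjusted p under 0.05 (Penk) and 0 by DESeq2, beside 4.5% of all genes tested.

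Between E1 and E2, each with more libraries than any treatment group, 68% of all genes tested were called, beside 5 of the 10 neuropeptide genes, all higher in E2. Penk was at 0.699, 2.5 and 10.2 CPM (lowest, median, highest) in the 53 libraries of E1 and at 1.25, 4.41 and 32.9 in the 54 of E2, a fitted difference of 1.09 (SE 0.22, adjusted p = 1.22e-05). Npy was at 4.14, 15.3 and 49.1 CPM against 10.3, 29.5 and 59.5 (0.67, SE 0.15, adjusted p = 7.51e-05). Sst was at 1.09, 3.44 and 9.4 CPM against 0.983, 5.13 and 12.8 (0.65, SE 0.16, adjusted p = 0.000323). Crh differed by 0.76 (adjusted p = 0.0132) and Cartpt by 0.78 (adjusted p = 0.0486, lost without the filter on low counts, 0.0667, and in DESeq2, 0.0503). The ranges of E1 and E2 overlapped for each of them. Each library-name code lies in E1 only (10 codes) or in E2 only (8 codes), and libraries of one code are not independent for this difference. These p-values may therefore be too small, above all for Npy, where the codes took 40.1% of the residual spread (median 18.5% over all genes). Vgf, Oxt, Avp, Trh and Vip were not called.

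Markers of several other cell types were also higher in E2. All 8 microglia markers were called higher in E2, with a summed level of 824, 2050 and 3760 CPM against 310, 1010 and 2800 in E1, as were all 8 oligodendrocyte markers, 8 of 12 interneuron markers and 6 of 10 general neuron markers. Another general neuron marker was called lower. Of 8 astrocyte markers 4 were called higher and 2 lower (median log2 fold change 0.06), and of 9 cortex and hippocampus markers tested 1 was called higher and 1 lower (median -0.12). Of 9 striatum markers tested 7 were called higher and 1 lower (median 0.50), of 16 hypothalamus markers 7 and 1 (median 0.69), of 10 thalamus markers 3 and 1 (median 0.02), and all 3 pituitary markers tested were called higher (median 4.4, at the low levels given above). Of 29 other peptide precursor genes tested 19 were called higher in E2 and 2 lower. The part of these lists in the higher neuropeptide genes was not tested.

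Between male and female libraries, read from the letter of the library name, 0 of 9 genes were called in batch 1 (0 also at an unadjusted p under 0.05 and 0 by DESeq2), beside 2.71% of all genes. In batches 2 and 3, 1 of 10 was called, beside 12.8% of all genes. Npy was lower in males, at 4.14, 17.6 and 59.5 CPM in 54 male libraries and 10.5, 28.6 and 50.5 in 53 female ones (-0.55, SE 0.11, adjusted p = 0.000891). All 8 microglia markers were also lower in males, 7 of them called, with a summed level of 310, 1270 and 3230 CPM against 577, 1570 and 3760, and their part was not tested. The letter is part of the library-name code, of which there are 18, and libraries of one code are not independent for it, so this p may be too small. In batch 1 the fitted difference in Npy was 0.18 (adjusted p = 0.558).

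The genes that package, cut and receive the peptides were read from lists that were also drawn up with earlier results known. Among 12 granins and granule genes, heme-albumin at 400 µM raised 2 and lowered 3, beside 29% of all genes called. Ptprn, which encodes a membrane protein of dense-core granules, rose by 0.81 on the log2 scale (SE 0.08, adjusted p = 6.02e-12; mean 236 against 133 CPM), by 0.64 (adjusted p = 3.24e-08) at 200 µM and by 0.50 (adjusted p = 0.000708) with hemeHpx. Ptprn overlaps the antisense gene Gm28294. Scg3, secretogranin III, fell by 0.56 on the log2 scale (adjusted p = 6.51e-09) at 400 µM. The median over the 12 genes at 400 µM was 0.05, beside -0.013 over all genes. With hemeHpx against control 10 of the 12 were higher (median 0.47), 8 at an unadjusted p under 0.05 in edgeR and 1 called, beside 8.2% of all genes. Against heme-albumin at 200 µM 5 were called higher and 0 lower (median 0.46), beside 25.9%.

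Of the 8 processing enzymes, 2 fell with heme-albumin at both 200 and 400 µM and 0 rose, beside 13.6% and 29% of all genes called. They were Cpe, carboxypeptidase E, which trims the cut peptides (-0.30, adjusted p = 7.41e-05 at 400 µM), and Pam, which amidates them (-0.24, adjusted p = 5.99e-05). With hemeHpx, against heme-albumin at the same dose, 4 of 8 were called higher, beside 25.9% of all genes, among them Cpe by 0.18 (adjusted p = 0.0226) and Pam by 0.15 (adjusted p = 0.0207). Of 8 astrocyte markers 4 fell with heme-albumin at 200 µM and 6 at 400 µM, of 8 microglia markers 6 and 3, and 0 rose. Against heme-albumin at 200 µM, 4 astrocyte and 7 microglia markers were called higher with hemeHpx and 0 lower. The part of these markers in the enzyme changes was not tested.

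Among 23 receptors and binding proteins of the members, 9 were tested in batch 1. Sstr5, a somatostatin receptor, rose with heme-albumin by 2.67 on the log2 scale at 400 µM (SE 0.33, adjusted p = 3.86e-09), where its level of 0.852 ± 0.316 CPM (SD, n = 10) did not overlap the control level of 0.121 ± 0.0663, and by 2.16 (adjusted p = 5.67e-06) at 200 µM. Its mean was under the filter's 0.453 CPM in control, with heme-albumin at 12.5 µM (0.216) and 50 µM (0.297) and with hemeHpx (0.227) and above it only at 200 µM (0.594) and 400 µM, so it was tested in batch 1 through the groups where it is high and these differences are a description. With hemeHpx it was 0.87 (adjusted p = 0.0978) against control and lower than with heme-albumin at 200 µM, by -1.29 (adjusted p = 0.00104). Sstr5 also rose with HbHp at 48 h, by 1.87 (adjusted p = 0.00133) at 200 µM and 2.07 (adjusted p = 0.000668) at 400 µM. Its levels in the groups of batches 2 and 3 are not given here, so these differences, too, are a description. Its ligand gene Sst was not called in any treatment comparison. Avpr1a, a vasopressin receptor, fell by 0.99 on the log2 scale (adjusted p = 0.00881) with heme-albumin at 400 µM.

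Of 38 other peptide precursors 20 were tested in batch 1. Heme-albumin at 400 µM raised Ucn2, urocortin 2 of the CRH family, by 1.47 (adjusted p = 1.84e-05) and Nppc, the C-type natriuretic peptide precursor, by 1.27 (adjusted p = 0.000711), and lowered 2, among them Pthlh (-0.72, adjusted p = 0.000173), beside 29% of all genes called. HemeHpx called 0 of the 20 against control, with 2 at an unadjusted p under 0.05, beside 8.2% of all genes.

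A list of 18 genes induced by neuronal activity or CREB was read beside Vgf and Cartpt. With heme-albumin 4 of them rose at 200 µM and 10 at 400 µM, and 0 fell, beside 13.6% and 29% of all genes called. Of 8 astrocyte markers 4 fell at 200 µM (median -0.30) and 6 at 400 µM (median -0.44), and of 8 microglia markers 6 fell at 200 µM (median -0.82) and 3 at 400 µM (median -0.62). The part of these markers was not tested. At 400 µM Fosb rose by 1.66 (adjusted p = 4.8e-10), Arc, which is made at active synapses, by 0.84 (adjusted p = 1.56e-09) and Nr4a3 by 1.27 (adjusted p = 5.83e-07). With hemeHpx 3 rose, among them Arc by 0.43 (adjusted p = 0.0189), and 1, Creb1, fell (-0.29, adjusted p = 0.0163), beside 8.2% of all genes called. With HbHp 400 µM at 24 h 8 of the 18 rose and at 48 h 7, beside 5.15% and 11.9% of all genes called, with Fosb at 2.75 (adjusted p = 2.6e-09) at 24 h, while Vgf was not called in those comparisons. At 48 h 2 of 8 astrocyte, 1 of 8 oligodendrocyte and 1 of 8 microglia markers also fell and 0 rose. None of these was called at 24 h, where 2 of 3 pituitary markers tested rose. The part of these markers was not tested either. With HbHp 200 µM 1 rose at 24 h, beside 1.93% of all genes called, and 5 rose and 1 fell at 48 h, beside 11.9%. With Hp alone 0 were called at 24 h (edgeR; 4 at an unadjusted p under 0.05), beside 0.704%, and 3 rose at 48 h, beside 10.8%. With Hb 0 were called at either dose or time, with 0 to 2 at an unadjusted p under 0.05.

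Neuropeptide genes stood near the top of all genes of like level in how much they varied between libraries of the same group. The measure is the biological coefficient of variation of the fit, the spread between libraries beyond counting error. In batch 1 it was 210% for Avp, 139% for Oxt, 108% for Trh, 96.5% for Cartpt, 86.8% for Crh, 72.3% for Penk, 50.9% for Sst, 44.7% for Npy and 26.3% for Vgf. Among the genes nearest in level to each, the median was between 10.7% (Vgf) and 29.6% (Avp). The percentile among those genes was 96 for Vgf, which was lowest in batch 1, and 99.8 for Oxt and Avp. In batches 2 and 3 it was highest for Vip, tested there only (192%), followed by Avp (183%) and Oxt (136%), and lowest for Npy (43.8%) and Vgf (41.1%). The percentile there was lowest for Sst, at 93. These are descriptions, and the percentiles carry no test.

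A few libraries held much of the RNA of Avp and Vip and, in batch 1, of Oxt. In batch 1 the top 6 of 60 libraries held 54.4% of the summed CPM of Oxt, 72.4% of that of Avp and 80.6% of that of Vip, but 19.8% of that of Vgf. In batches 2 and 3 the top 11 libraries held 41.2%, 50.5%, 71.6% and 20.4%. For Trh the shares were 42.2% and 40.1% and for Crh 32.4% and 32.3%. Libraries that share the code of the library name took 40.1% of the residual spread of Npy in batches 2 and 3, beside a median of 18.5% over all genes, and 22.4% beside 26.2% in batch 1.

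**Figure D4:**
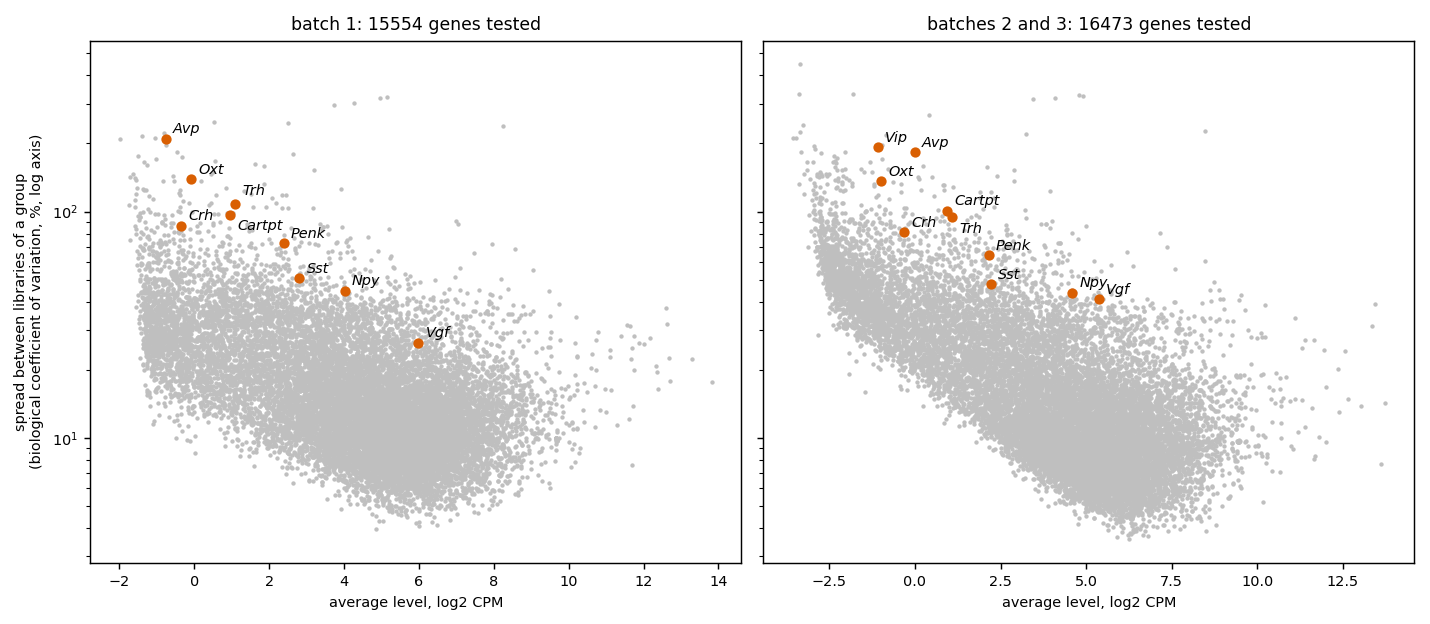
Biological coefficient of variation (percent, log axis) against mean log2 CPM for the genes tested in batch 1 and in batches 2 and 3, with the neuropeptide genes named. Avp (210% and 183%) and Oxt (139% and 136%) lie at the upper edge of the cloud, and Vgf (26.3% and 41.1%) lies lowest of the named genes but above most genes of its level.

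Several of the genes rose and fell together from library to library. Correlations were taken on log2 CPM after removing group means (and batch and E1 or E2), over the 60 libraries of batch 1 and, separately, the assigned libraries of batches 2 and 3 (53 of E1 and 54 of E2), so that genes compared share the tissue piece and the depth of each library, and they are descriptions. Oxt and Avp correlated at 0.77 and 0.85, Trh and Cartpt at 0.77 and 0.74, Cartpt and Crh at 0.72 and 0.81 and Penk and Crh at 0.76 and 0.73. Vgf and Npy correlated at 0.11 and 0.35 and Npy and Sst at 0.17 and 0.14.

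The genes most like each member, of 15331 compared, were taken by the lower of both correlations. For Oxt and Avp the first was Otp (0.84 and 0.79 with Oxt, 0.84 and 0.85 with Avp), a homeobox gene of the hypothalamus, and Sim1, another hypothalamic transcription factor, stood at 0.85 and 0.79 with Avp. Otp was at 0, 0.0215 and 4.09 CPM (lowest, median, highest) in batch 1, so many libraries held a few reads of it at most. Of the 60 libraries there, 30 held 3 counts or fewer of Oxt and 42 of Avp, while the highest held 279 and 156 counts. For Oxt the third was Kl, the klotho gene, which the choroid plexus expresses strongly (0.77 and 0.77; 0 to 63.5 CPM in batch 1). Trh went with Scg2, secretogranin II (0.89 and 0.78), Calcr (0.83 and 0.79) and Slc17a6, the vesicular glutamate transporter of the thalamus and hypothalamus (0.82 and 0.78). Cartpt went with Irs4 (0.85 and 0.88), Fndc9 and the neurotensin gene Nts (0.84 and 0.86).

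Vgf was most like Ptprn (0.80 and 0.87), Cbarp (0.78 and 0.85) and Fbxo41 (0.72 and 0.71). The nearest genes of Npy are ones that microglia and other phagocytes express: Fcgr3, an Fc receptor (0.88 and 0.91), Lgmn, the protease legumain (0.88 and 0.90), and Fcer1g (0.88 and 0.90). Lgmn was abundant, at 359 to 1300 CPM in batch 1, so this relation does not rest on few reads of that gene. Penk went with the synaptic genes Snap25 (0.87 and 0.87) and Napb (0.87 and 0.86) and with Spock2 (0.86 and 0.88). Crh went with Celf6 (0.86 and 0.87), Rasgrf2 and Tmem130 (0.85 and 0.86). Sst had the loosest partners, Phyhip (0.65 and 0.61), Rasd2 and Rbfox3, the NeuN gene (0.63 and 0.58). No partner is given for Vip, which was not tested in batch 1.

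**Figure D5:**
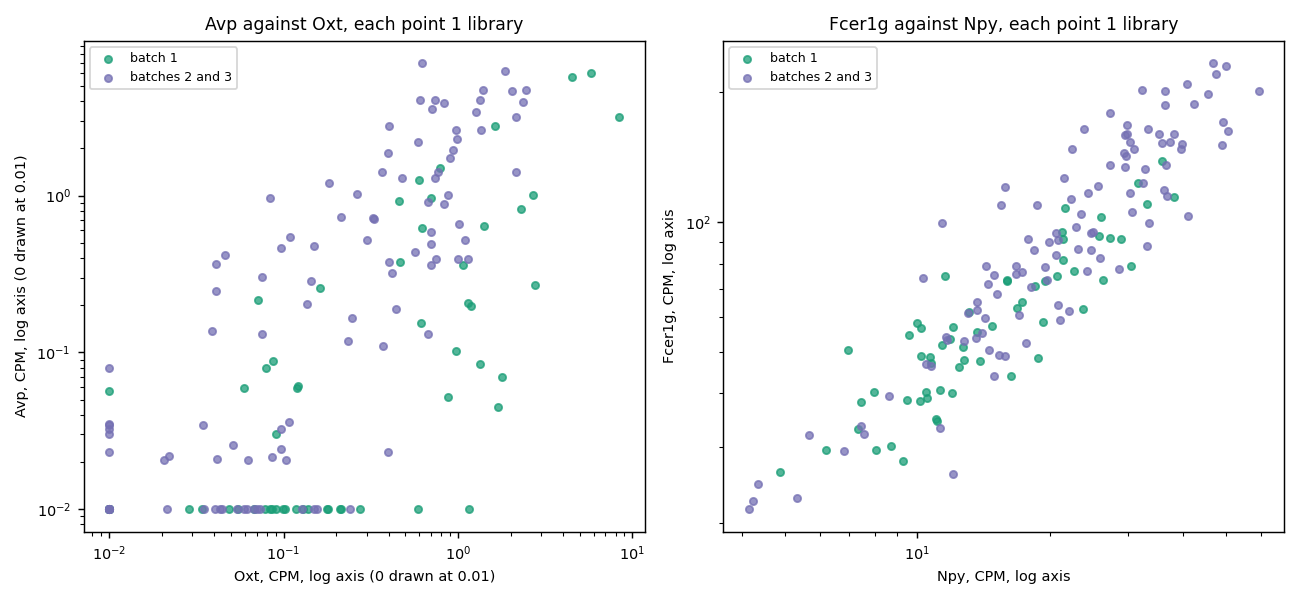
Levels of Avp against Oxt (left) and of Fcer1g against Npy (right), in CPM on log axes, each point 1 of the assigned libraries, coloured by batch 1 or batches 2 and 3. After group means were removed on the log2 scale the correlations were 0.77 and 0.85 for Avp and Oxt and 0.88 and 0.90 for Fcer1g and Npy.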

How the data were processed

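The authors deposited whole, unnormalized read counts per Ensembl gene for each of 188 libraries of poly(A)-selected (TruSeq) RNA; the submitters' processing notes name featureCounts and the build GRCm39, with no versions. Members and gene lists were chosen with earlier results of these data known. Other named genes were, by rule, the 3 most similar genes of each member and at most 3 of each list with the smallest adjusted p in a comparison described.

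Symbols were matched by Ensembl ID in GENCODE M21. CPM values were computed on TMM-scaled totals. Batch 1 and batches 2 and 3 were fitted apart with edgeR 4.0.16 in R 4.3.3 (glmQLFit and glmQLFTest, limma 3.58.1; filterByExpr with a minimum count of 10 and total of 15), with groups in batch 1 and groups, batch and E1 or E2 in the other fit, leaving 54 and 93 residual degrees of freedom. P-values were adjusted by Benjamini-Hochberg over all 15554 or 16473 genes tested, at a threshold of 0.05. Given values are lowest, median and highest, or mean ± SD. A value of 0 allows up to 3 counts of the library, as far as counting error goes, so libraries with fewer counts are less precise for the low genes.

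On simulated counts the fit found 63.6% of genes given a log2 fold change of 0.5 and 90% of those given 1 for heme-albumin 400 µM (15489 genes), and 63% and 79.6% for HbHp 200 µM at 48 h (16306 genes). The changed genes were drawn at random from all genes. These shares cannot be carried over to the neuropeptide genes, which varied more between libraries than most genes of like level. No libraries agreed within sampling noise. Alternatives were DESeq2 1.42.0, RLE scaling, no filter, the library-name code as a block, other sets of libraries and leaving out single libraries. The 21 libraries without a group entered no comparison. Tables were drawn up with Python 3.11.15.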

Additional observations from a re-analysis of the deposited data

Results flagged for a closer look

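In 12 of 160 group levels tested, a library stood apart from the rest of its group by Dixon's ratio on the log scale, and chance alone flags about 1 in 20 groups. Low libraries were Penk at 1.08 CPM (next 4.01) and Crh at 0.0678 CPM (next 0.845), both in replicate 2 of hemeHpx, Vgf at 23.4 CPM (next 58.2) in replicate 8 of heme-albumin 200 µM, Npy at 17.3 CPM (next 36.3) in replicate 4 of HbHp 400 µM at 24 h and Avp at 0 CPM (next 0.301) in replicate 2 of HbHp 400 µM at 48 h.

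High libraries were Penk at 38.6 CPM (next 5.46) in replicate 8 of heme-albumin 50 µM, Avp at 2.77 CPM (next 0.358) in replicate 2 of heme-albumin 12.5 µM and Avp at 0.822 CPM (next 0.215) in replicate 4 of heme-albumin 400 µM. Vgf stood at 103 CPM (next 49.7) in replicate 7 of the 48 h control of batches 2 and 3. Vip was high in 3 libraries, at 2.01 CPM (next 0.404) in replicate 4 of Hb 200 µM at 24 h, 0.348 CPM (next 0.0859) in replicate 5 of the batch 1 control and 3.21 CPM (next 0.505) in replicate 9 of the 48 h control.

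Libraries outside the comparisons were flagged where their median lay above the highest control of the same part, E1 or E2. The 14 E1 libraries whose tag names an Hb and Hpx mixture while the title names hemoglobin with haptoglobin had Vgf at 56.5, 94.7 and 138 CPM (lowest, median, highest), and all 14 lay above the highest of the 14 E1 controls, at 46 CPM. These libraries are all of batch 3, whereas 12 of the E1 controls are of batch 2, and the 2 E1 controls of batch 3 had Vgf at 32 and 32.9 CPM. The median of Sst in the same 14 libraries was 6.33 CPM, beside a highest E1 control of 6.3 CPM. The assigned E1 libraries of batch 3, of Hb, Hp and control, had Vgf from 25.5 to 77.5 CPM, and no test was made.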

How the results depend on the processing

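Counts of the neuropeptide genes called were 0 in all 12 treatment comparisons of batches 2 and 3, and in the 48 h against 24 h control, under each alternative that could be fitted. Signs were compared only for the 13 fold changes that passed in the main fit, none of them in those comparisons. None of the 13 reversed where an alternative gave an adjusted p. With heme-albumin 400 µM DESeq2 called 2 (Cartpt and Vgf), and leaving out single libraries gave 1 to 2. For hemeHpx against control the count was 1 without the filter on low counts (Vgf), and leaving out single libraries gave 1 to 6. For hemeHpx against heme-albumin 200 µM it was 3 to 7. The causes were not tested. DESeq2 gave no adjusted p for Oxt with hemeHpx. Leaving out each batch 1 library of the 4 groups with calls was chosen after seeing the data.

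With the library-name code as a replicate block, the count for hemeHpx against control was 4 (Oxt, Avp, Vgf and Crh). Libraries that share a code had a median correlation of their deviations of 0.192 in batch 1, over 0.1 in 55.6% of pairs. Libraries of different codes had -0.01 there. In batches 2 and 3 the medians were 0.061, over 0.1 in 42.6% of pairs, and -0.005. Each code of batch 1 holds every treatment, but the labels do not say what a code marks, so the code was not taken as a pairing. Whether Avp and Crh are called for hemeHpx against control depends on this choice.

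RLE scaling changed no count. Depth limits Oxt, Avp, Vip and Crh most, whose values include libraries of 3 counts or fewer.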

Other observations

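The 6 E2 libraries with the same unclear tag had Vgf at 34.2, 64.4 and 108 CPM (lowest, median, highest), beside 32.8 to 103 CPM in the 5 E2 controls. Npy in them had a median of 35.5 CPM and a lowest value of 31.8, beside 10.3 to 47.6 in those controls. One library tagged as a control whose labels give conflicting times held Avp at 8.44 CPM, above the highest assigned E2 library at 6.99 CPM. Among the 6 E2 libraries of the unclear tag Avp was at 0, 0.119 and 12.7 CPM, with 1 above that library. In the 14 E1 libraries of the unclear tag Cartpt was at 0.23, 3.35 and 13.1 CPM, with 3 above the highest E1 control, and Penk at 2.25, 5.96 and 10.7 CPM, with 4 above it. These libraries are not replicates of a labelled group, and their values are set beside the controls without a test.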
